A study of Canis lupus familiaris with 10 samples.

Results

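The genes described here encode 10 proteins that make leukotrienes and prostaglandins, measured in CCH (canine cutaneous histiocytoma), which is a tumor of Langerhans-type cells in the skin of dogs that usually regresses by itself. The 10 genes are among the 23266 gene symbols of the table, and all 10 were found by their symbol. ALOX5 was picked on its fall from early to late CCH, so its difference between the stages is described without a test. The other 9 genes were listed for their place in the same pathway, at a time when earlier results of these data were known. The samples were formalin-fixed, paraffin-embedded (FFPE) tumors of pet dogs of several breeds and both sexes, 5 in group 1 (early) and 5 in group 3 (late) of the staging after Cockerell & Slauson. The labels call the late tumors lymphocyte enriched and name no treatment in either stage. The age given was 0.5 to 5 years for 4 of the early dogs and 1.5 to 9 years for the 5 late dogs.

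Leukotrienes and prostaglandins are short-lived lipid mediators made from arachidonic acid. Cytosolic phospholipase A2 (PLA2G4A) frees the acid from membranes. The lipoxygenase ALOX5, with its membrane partner ALOX5AP, turns it into leukotriene A4, from which LTA4H makes the neutrophil attractant leukotriene B4 and LTC4S makes the cysteinyl leukotrienes. The cyclooxygenases PTGS1 and PTGS2 turn the same acid into prostaglandin H2, from which PTGES makes prostaglandin E2 and HPGDS makes prostaglandin D2. ALOX15 makes other hydroxylated lipids. In skin, such mediators come from myeloid cells, mast cells and the epithelium, and they act on vessels, leukocyte traffic and dendritic cell migration.

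Gene expression was measured by QuantSeq 3′, which yields a single fragment near the polyadenylated end of a transcript, so that the count does not depend on transcript length. The libraries held 2973125 to 4439709 reads assigned to genes. Values are normalized read counts, in which a single read was worth 0.788 to 1.07 depending on the library, and the limit that a count of 0 allows, taken as 3 reads, was 2.36 to 3.22. The numbers 1 to 5 given to the libraries of each stage are names and pair nothing. The share of RNA fragments over the DV200 length was 68.5% ± 2.46 in early and 73.2% ± 2.09 in late samples (SD, n = 5 each), and the study lists the stages in separate RNA extraction batches, so that stage, RNA quality and extraction batch cannot be told apart in any value below. Each p-value sets a difference between the stages against the spread between tumors of the same stage. The tests draw that spread toward the spread of other genes of similar abundance.

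Of the leukotriene genes, ALOX5 and ALOX5AP were lower in late CCH, and LTA4H was lower in every late library by a smaller amount. LTC4S, at the next step, had overlapping values. ALOX5 had normalized read counts of 291, 161, 188, 403 and 463 in early libraries 1 to 5. In late libraries 1 to 5 it had 3.98, 24.7, 14.5, 10.2 and 21.0. The late values all lay under the lowest early value, and the mean was 20.2-fold lower, with 14.9 ± 8.29 against 301 ± 131 (SD, n = 5 each). Its log2 fold change (log2FC, the late minus the early mean of log2(value + 1)) was -4.34 ± 0.45 (SE). The late libraries together held 75 ALOX5 reads and the early libraries 1630. In a bulk sample, fewer cells of a type and less RNA per cell cannot be told apart, which holds for each gene described.

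ALOX5AP, the partner that presents arachidonic acid to ALOX5, had values of 1838, 1522, 1634, 2353 and 1639 in early CCH. The late libraries had 468, 722, 353, 413 and 652. The stages did not overlap, since the highest late value of 722 lay under the lowest early value of 1522. The mean fell from 1797 ± 331 to 522 ± 158 (SD, n = 5 each), which is 3.45-fold lower. The log2FC was -1.82 ± 0.21 (SE, 95% confidence interval -2.27 to -1.37, BY-adjusted p = 0.00735, limma). A gene was called with a Benjamini-Yekutieli (BY) adjusted p of at most 0.05 over all genes tested and a log2FC whose size reached 1. ALOX5AP was the only one called of the 9 members other than ALOX5, where 2.17% of the 12397 genes tested were called, 1.06% as higher and 1.11% as lower in late CCH. Leaving out any 1 of the 10 libraries kept this call. The call also held with Benjamini-Hochberg (BH) adjustment, the edgeR quasi-likelihood test and the DESeq2 Wald test, under which 9.04%, 1.43% and 6.53% of all genes were called.

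LTA4H, the hydrolase that makes leukotriene B4, had 764, 497, 773, 744 and 730.0 in early CCH. Its late values were 354, 312, 403, 368 and 465. Every late value lay under every early value, as was also the case for ALOX5 and ALOX5AP and for 6.05% of all genes tested, while 5.91% of all genes lay in the opposite order. The mean was 1.84-fold lower, with 380.4 ± 57.3 against 701 ± 115 (SD, n = 5 each). With a log2FC of -0.88 ± 0.16 (SE, 95% confidence interval -1.23 to -0.52, BY-adjusted p = 0.0537, limma), it stayed under the threshold of size and missed that of the adjusted p, which it passed under some other settings. Early library 2 had the lowest early value, and without it the early mean was 752 ± 19.2 (SD, n = 4).

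LTC4S, the synthase of the cysteinyl leukotrienes, had 108, 55.8, 156, 169 and 117 in early CCH. The late values were 144, 139.9, 131, 24.5 and 273. Late library 5 was above and late library 4 below all early libraries, and the remaining 3 lay among them. The mean was 121 ± 44.6 in early and 142 ± 88.1 in late CCH (SD, n = 5 each), a log2FC of -0.0091 ± 0.53 (SE, 95% confidence interval -1.15 to 1.13, BY-adjusted p = 1, limma). The interval thus allows a change of more than the threshold in either direction. Without late library 4 the log2FC was 0.53. In the RefSeq table of the dog assembly UU_Cfam_GSD_1.0, LTC4S overlaps MGAT4B, a glycosyltransferase gene, and how reads in the shared part were assigned was not tested. PLA2G4A overlaps a further locus there, and LTA4H, ALOX15 and PTGES have loci within 2 kb. ALOX5AP was not found in that table by its symbol, so its neighbors were not checked. MGAT4B itself had 955 ± 148 in early and 527 ± 58.9 in late CCH (SD, n = 5 each). With a log2FC of -0.85 ± 0.15 (SE, BY-adjusted p = 0.0421 in limma), it stayed under the threshold of size.

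**Figure D1:**
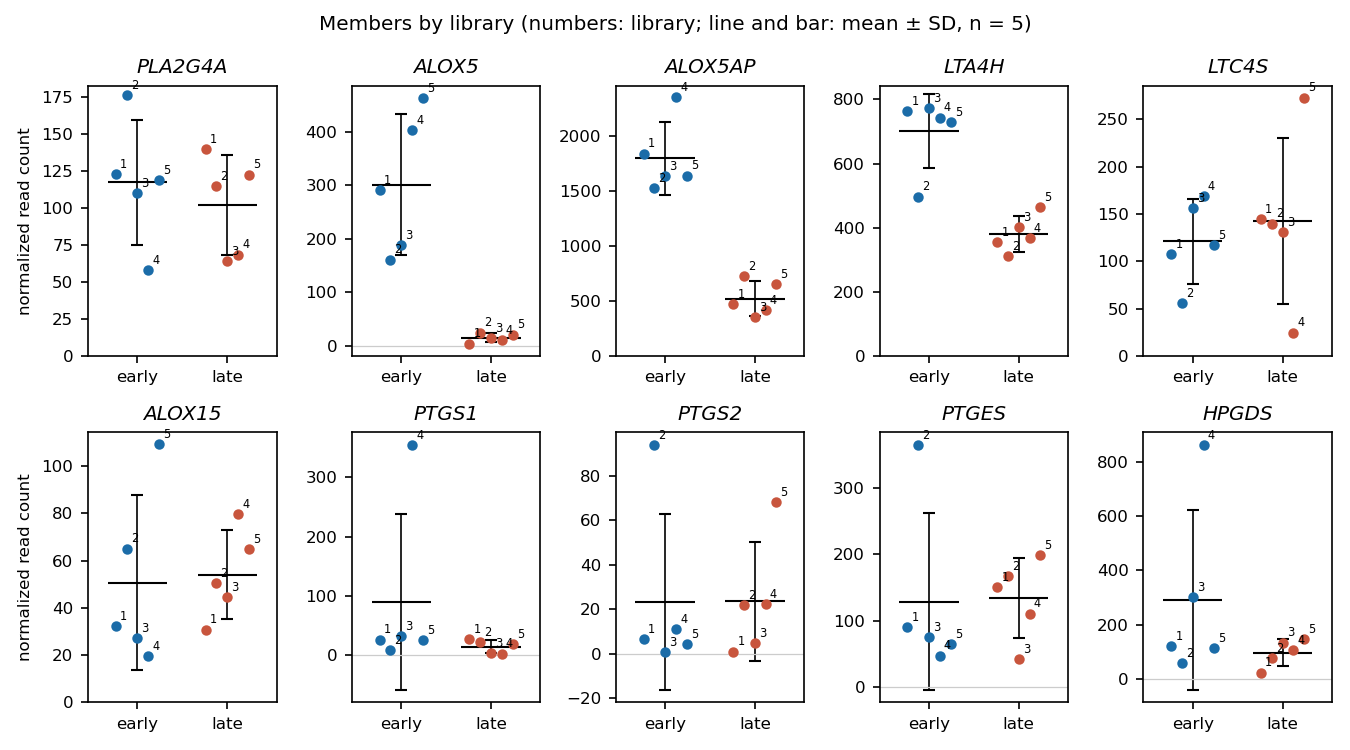
Normalized read counts (y axis, linear) of the 10 genes in early (blue) and late (red) CCH, with 1 point per library labeled with its number, and the mean ± SD of 5 libraries as a line and bar. The late points of ALOX5, ALOX5AP and LTA4H all lie under the early points, while PTGS1, PTGS2, PTGES and HPGDS each have 1 early library above all others.

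PLA2G4A and ALOX15 are the remaining members outside the prostaglandin branch. PLA2G4A, the enzyme that starts the pathway, ranged from 58.3 to 177 in early and from 63.9 to 140.2 in late CCH, with a log2FC of -0.19 ± 0.31 (SE, 95% confidence interval -0.86 to 0.49, BY-adjusted p = 1, limma). ALOX15 ranged from 19.7 to 109.5 in early and from 30.8 to 79.8 in late CCH, with a log2FC of 0.30 ± 0.44 (SE, 95% confidence interval -0.66 to 1.25, BY-adjusted p = 1, limma). For both genes no late library lay outside the early range. Neither passed the test, and the interval of PLA2G4A lies within the threshold of 1 in both directions, whereas that of ALOX15 does not.

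None of the 4 prostaglandin genes passed the test, and each had its highest value in a single early library. PTGS1, the constitutive cyclooxygenase, had 25.7, 8.37, 31.7, 355 and 24.7 in early CCH. In late CCH it had 25.9, 20.9, 2.91, 2.05 and 17.8. Early library 4 was more than 10 times as high as any other library, and late libraries 3 and 4 had at most 3 reads each. The log2FC was -1.83 ± 0.92 (SE, 95% confidence interval -3.82 to 0.17, BY-adjusted p = 1, limma). On the recovered reads it was -2.64 with edgeR, which did not call it, and -2.67 with DESeq2, which gave no adjusted p. Without early library 4, the early mean dropped from 89.1 ± 149 (SD, n = 5) to 22.6 ± 9.97 (SD, n = 4), against 13.9 ± 10.8 in late CCH (SD, n = 5), and the log2FC was -1.02.

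HPGDS, the synthase of prostaglandin D2, had 121, 58.6, 302, 862 and 116 in early CCH. In late CCH it had 24.9, 77.1, 135, 106 and 148. Early library 4 again had the highest value, early library 3 the next, and the remaining 3 early libraries lay within the late range. The mean was 292 ± 331 in early and 98.2 ± 49.2 in late CCH (SD, n = 5 each), a log2FC of -1.13 ± 0.66 (SE, 95% confidence interval -2.57 to 0.30, BY-adjusted p = 1, limma). Without early library 4, the early mean was 149 ± 106 (SD, n = 4) and the log2FC was -0.58.

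PTGS2, the inducible cyclooxygenase, had 6.66, 94.0, 0.905, 11.0 and 4.29 in early CCH. The late libraries had 0.994, 21.9, 4.84, 22.5 and 68.2. Early library 2 and late library 5 held most of its reads, while early library 3 and late library 1 had 1 read each. The means of 23.4 ± 39.6 and 23.7 ± 26.7 (SD, n = 5 each) were close, and the log2FC was 0.46 ± 1.09 (SE, 95% confidence interval -1.91 to 2.83, BY-adjusted p = 1, limma). PTGS2 reached a value of 10 in just 5 of the 10 libraries, the minimum for a test. Without early library 2 the early mean was 5.72 ± 4.25 (SD, n = 4).

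PTGES, the inducible synthase of prostaglandin E2 that works with PTGS2, had 90.4, 365, 75.1, 47.3 and 64.4 in early CCH. In late CCH it had 150.1, 166, 41.6, 110.4 and 198. Its highest early value was in library 2 and its highest late value in library 5, the libraries in which PTGS2 was highest too. The log2FC was 0.32 ± 0.53 (SE, 95% confidence interval -0.84 to 1.47, BY-adjusted p = 1, limma). Without early library 2 the early mean was 69.3 ± 18.2 (SD, n = 4) against 133 ± 60.3 in late CCH (SD, n = 5), with a log2FC of 0.80 that did not pass the test.

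Spread within a stage also differed among the genes. On the log2(value + 1) scale, the SD over the 5 early libraries was 2.08 for PTGS2, 1.94 for PTGS1, 1.49 for HPGDS and 1.13 for PTGES, where the median over all 12397 genes tested was 0.42 and the 90th percentile 1.10. In late CCH these SDs were 1.99, 1.49, 1.02 and 0.88, against a median of 0.41 and a 90th percentile of 1.00. LTC4S had 0.62 in early and 1.28 in late CCH. ALOX5AP, with 0.25 in early and 0.44 in late CCH, and LTA4H, with 0.27 and 0.21, were the least variable of the 10 genes in each stage. The values over all genes are not matched for abundance. PTGS1 and PTGS2 had as few as 2 and 1 reads in a library, against at least 364 for ALOX5AP. The early SDs also depend on single libraries, library 4 for PTGS1 and library 2 for PTGS2 and PTGES.

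**Figure D2:**
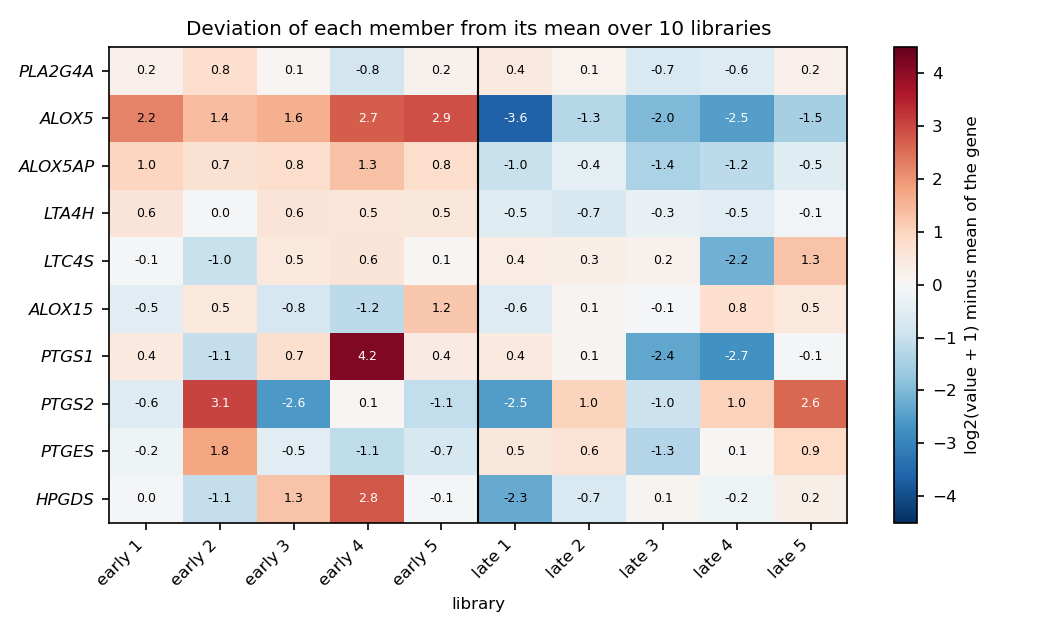
Deviation of each gene (rows) in each library (columns) from its own mean over the 10 libraries, on the log2(value + 1) scale (color and printed number). ALOX5 ranges from 2.9 in early library 5 to -3.6 in late library 1, and early library 4 stands out for PTGS1 (4.2) and HPGDS (2.8), early library 2 for PTGS2 (3.1) and PTGES (1.8).

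The rest of the pathway was described with a list of 66 symbols of phospholipases and the lipase MGLL, lipoxygenases, synthases, regulators, degrading enzymes, transporters and receptors. Of these, 57 were found in the table and 32 passed the filter on low values. Limma called 0 of the 32. Unadjusted, 5 had a p of at most 0.05 and were higher in late CCH and 2 were lower, where 1938 and 1895 of all 12397 genes were. The edgeR and DESeq2 tests also called 0, where 1.43% and 6.53% of all genes tested were called. With BH adjustment 2 of the 32 were called, where 9.04% of all genes tested were. Of the 32 log2FC values, 20 were above and 12 below 0, with a median of 0.21 against -0.0037 over all genes tested.

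The list of phospholipases also held MGLL, a lipase that is not a phospholipase. Of the 8 genes of this list that were tested, 0 passed. Log2FC values ran from -0.092 for PLA2G15, a lysosomal phospholipase, to 4.87 ± 1.11 (SE) for PLA2G2D, a secreted phospholipase of lymphoid tissue (BY-adjusted p = 0.132, limma). PLA2G2D had 0, 164, 21.7, 14.2 and 1.07 in early CCH. Its late values were 261, 363, 123, 742 and 287. All late libraries but library 3 lay above every early library, and early library 2 was the only early one above the lowest late value. The late mean was 8.85-fold the early mean, and the log2FC was 3.14 with DESeq2, where PLA2G2D was not called with an adjusted p of 0.633. The limma value rests in part on the early values of 0 and 1.07 with a pseudocount of 1. Without early library 2, PLA2G2D was called with a log2FC of 5.87 and a BY-adjusted p from limma of 0.0241, and with BH adjustment it was called in all libraries. MGLL, which frees arachidonic acid through the breakdown of an endocannabinoid, had 106 ± 93.2 in early and 255 ± 82.2 in late CCH (SD, n = 5 each). The gene had a log2FC of 1.64 ± 0.50 (SE) with a BY-adjusted p of 0.447 from limma, and it was the second gene called with BH adjustment.

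Of the other lipoxygenases, only ALOX15B passed the filter, with a log2FC of 0.66 ± 0.94 (SE). The 5 prostanoid synthases tested ran from -0.70 ± 0.61 for the prostacyclin synthase PTGIS to 1.61 ± 0.65 (SE) for FAM213B, the older symbol of a prostaglandin F synthase. The cysteinyl leukotriene enzymes tested were MGST1, a microsomal glutathione transferase, with 2.26 ± 0.85, and its relative MGST3 with -0.31 ± 0.20 (SE). None of these was called, with BY-adjusted p-values from limma between 0.769 and 1. AKR1C3, a further prostaglandin F synthase, had no read in any of the 10 libraries.

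Of the regulators, 0 of 3 passed the test. Their log2FC values ranged from -0.022 ± 0.17 for MAPKAPK2, a kinase of ALOX5, to -0.61 ± 0.23 (SE, BY-adjusted p = 0.870, limma) for ANXA1, an inhibitor of phospholipase A2. COTL1, a binding partner of ALOX5, lay between them with -0.094 ± 0.19 (SE). Of the enzymes and transporters that remove these lipids, 0 of 6 passed, from -0.064 for PTGR2 to 0.55 for ABCC4.

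Of the 16 receptors listed, 7 passed the filter and 0 the test. The lowest was CYSLTR2, a receptor of the cysteinyl leukotrienes, with 193 ± 94.8 in early and 97.8 ± 52.0 in late CCH (SD, n = 5 each) and a log2FC of -0.95 ± 0.45 (SE, BY-adjusted p = 1 in limma). The highest was TBXA2R, the thromboxane receptor, which 4 of 5 late libraries had above every early library, with a log2FC of 0.90 ± 0.54 (SE, BY-adjusted p = 1 in limma). LTB4R, the main receptor of leukotriene B4, had 10.7 ± 8.07 in early and 9.30 ± 9.33 in late CCH (SD, n = 5 each), and LTB4R2 had no read in any library, which allows up to 3 reads in each.

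**Figure D3:**
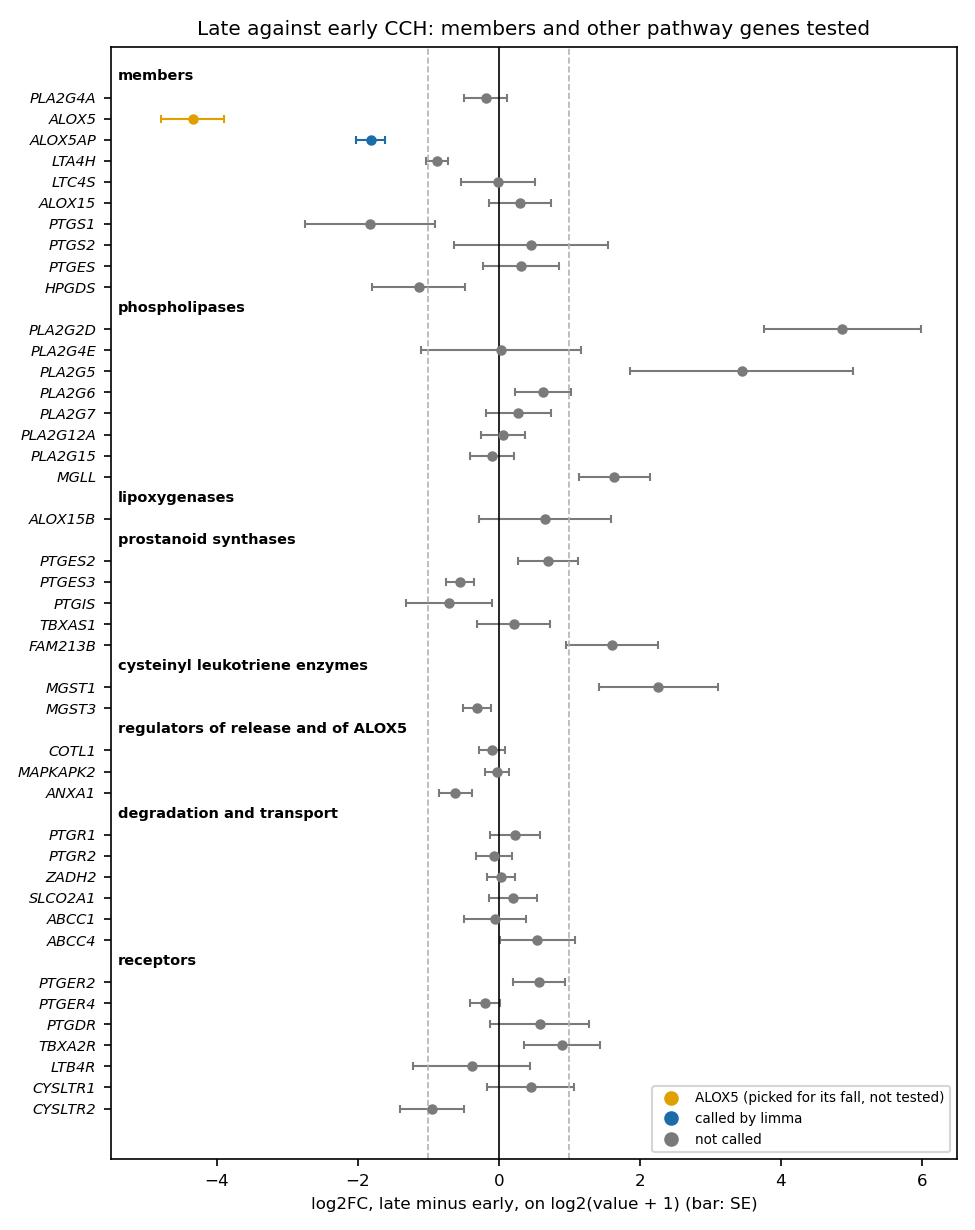
Log2FC of late against early CCH (x axis, log2(value + 1) scale, bar: SE) for the 10 genes and the 32 further pathway genes tested, with dashed lines at -1 and 1. ALOX5AP (blue) is the gene called at -1.82, ALOX5 (yellow) lies at -4.34 and was not tested, and PLA2G2D at 4.87 is the rightmost gene that was not called (gray).

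The genes with the pattern most like that of ALOX5 were sought among the genes tested, leaving out symbols that start with LOC, by the root mean square difference of the gene-centered log2(value + 1) values over the 10 libraries. The 5 closest were RIMS1 with a difference of 0.82, PKIA with 0.93, DSG2 with 0.94, GALNT3 with 0.96 and BCL2L15 with 0.97. All 5 had lower means in late CCH. RIMS1, a synaptic vesicle protein, had 56.1 ± 40.1 in early and 3.20 ± 1.93 in late CCH. PKIA, an inhibitor of protein kinase A, had 618 ± 345 and 59.2 ± 47.4. The desmosomal cadherin DSG2 had 34.1 ± 13.7 and 4.59 ± 3.60, the glycosyltransferase GALNT3 had 387 ± 148 and 56.5 ± 41.7, and BCL2L15, of the BCL2 family, had 994 ± 226 and 162 ± 102 (SD, n = 5 each). RIMS1 and DSG2 held 16 and 23 reads over the late libraries, with a value of 0 in late library 1, so few reads set their late profiles. The 5 genes were chosen for this likeness, which the difference between the stages largely sets. Of the other members, ALOX5AP came closest, with a difference of 1.40, and PTGS2 was farthest, with 2.96. ALOX5AP had rank 75 when symbols that start with LOC were counted too.

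**Figure D4:**
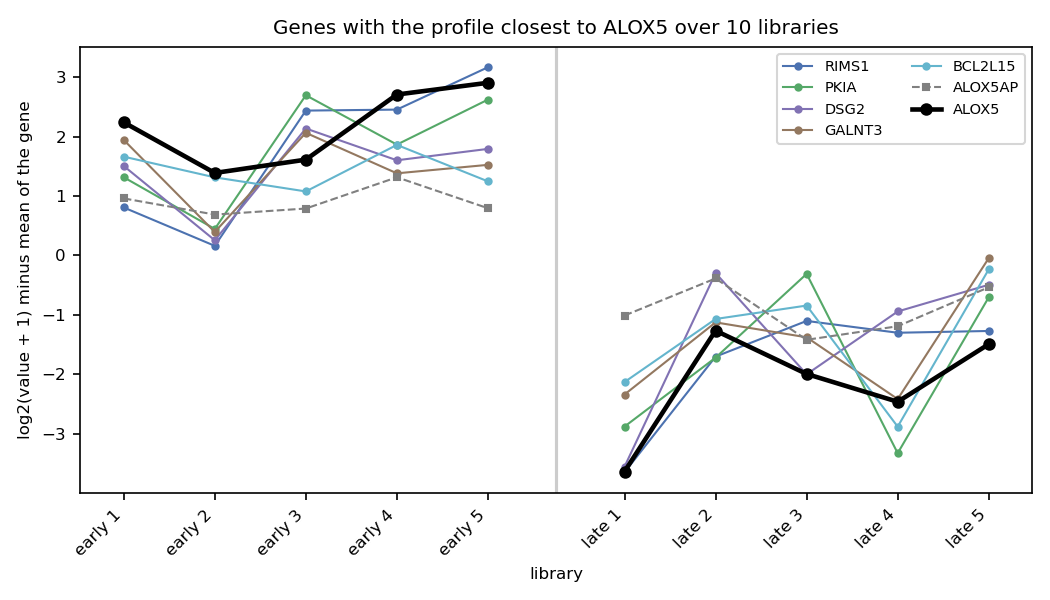
Gene-centered log2(value + 1) values (y axis) over the libraries (x axis) for ALOX5 (black), the 5 genes with the closest profile and ALOX5AP (gray, dashed). Lines within a stage only guide the eye, and ALOX5 lies above 1.3 in all early and below -1.2 in all late libraries, with ALOX5AP in the same order over a narrower range.

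Markers of cell types were set beside these values. Of the Langerhans and dendritic cell list, 11 of 16 symbols were found, and 9 were tested, all with a log2FC below 0 and a median of -1.12. CD1B and CD1C did not pass the filter and had higher means in late CCH, with 3.76 and 7.20 against 2.12 and 3.55 in early CCH. The summed value was 1272 to 3415 in early and 859 to 1297 in late CCH. FLT3, a growth factor receptor of dendritic cells, and FCER1A, the high-affinity IgE receptor chain, were called lower, with log2FC values of -2.89 and -2.47 (BY-adjusted p = 0.0434 and 0.0401, limma). Over all genes tested, 1.11% were called lower and 1.06% higher. CD1A8, an antigen-presenting CD1 gene, had the lowest log2FC with -3.80, and the dendritic cell integrin ITGAX the highest with -0.13 ± 0.39 (SE). CD207, which encodes the Langerhans cell lectin, was not analysed here. The T-cell list moved the other way, with summed values of 90.4 to 2652 in early and 3628 to 6500.4 in late CCH and 1 of 10 genes, the lymphocyte receptor CD6, called higher. Its log2FC values ran from 2.21 for CD8B to 4.00 for the costimulatory receptor CD28. The B-cell sums were 51.5 to 238 and 417 to 2320.5 with 0 of 6 called, and the highest log2FC was 4.67 for CD79B. Whether the lower ALOX5 and ALOX5AP values follow from these shifts in cell markers was not tested.

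Macrophages also express ALOX5AP and LTC4S. Of the 10 macrophage genes, 9 were tested and 0 called, where 2.17% of all genes tested were called. With lists this short, 0 calls is near that share, here and in the lists below. The macrophage log2FC values ran from -0.88 for MRC1 to 2.25 for MSR1, with 7 above and 2 below 0 and a median of 0.96. MSR1 was higher in every late library than in any early one. The summed value was 2658 to 11552 in early and 6044 to 11714 in late CCH. Mast cells are a known source of prostaglandin D2 and leukotriene C4. Of the 6 mast cell genes found, 4 were tested and 0 called, from the protease CPA3 with -2.14 to the chymase CMA1 with 0.92. MS4A2 and KIT lay between them with -1.50 and 0.70. The summed values of 49.4 to 165 in early and 70.6 to 116 in late CCH overlapped, although the single genes went in both directions. Neutrophil sums ran from 229 to 9416 and from 134 to 9031, with 0 of 5 genes called, from S100A9 with -1.25 to CSF3R with 1.47. The eosinophil and platelet lists had 3 genes each in the table, none past the filter, with sums of at most 63.3 and 8.57 in any library. The keratinocyte, fibroblast and endothelium lists had 0 of 7, 0 of 7 and 0 of 6 genes called. Their log2FC values ran from -1.56 (DSG1) to -0.30 (DSG3), from -0.47 (LUM) to 0.30 (PDGFRB) and from -0.48 (TEK) to 1.17 (CLDN5). Their sums were 872 to 15804, 7742 to 60728 and 507 to 849 in early and 638 to 7663, 10713 to 35886 and 572 to 1160 in late CCH. All 7 keratinocyte genes tested had a log2FC below 0, with a median of -1.14. The Langerhans and dendritic cell list was thus not alone in this, with 9 of 9 below 0 and a median of -1.12.

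The libraries that stood apart for the prostaglandin genes were also extreme for some of these lists. Early library 2, highest for PTGS2 and PTGES, had the highest macrophage, neutrophil and fibroblast sums of the early stage, at 11552, 9416 and 60728. Early library 4, highest for PTGS1 and HPGDS, had the highest keratinocyte sum at 15804. Its mast cell sum of 165.4 lay next to 164.7 in early library 2, where HPGDS was lowest among the early libraries with 58.6. These 2 sums differ in their make-up, with KIT at 120.5 and CPA3 at 18.1 in early library 4. Early library 2 had KIT at 13.0 and CPA3 at 69.8. Early library 1 had keratinocyte and neutrophil sums close to the highest, with 13935 and 8112. It had PTGS1 at 25.7, HPGDS at 121 and PTGS2 at 6.66. The part of these cell markers in the single high values was not tested.

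**Figure D5:**
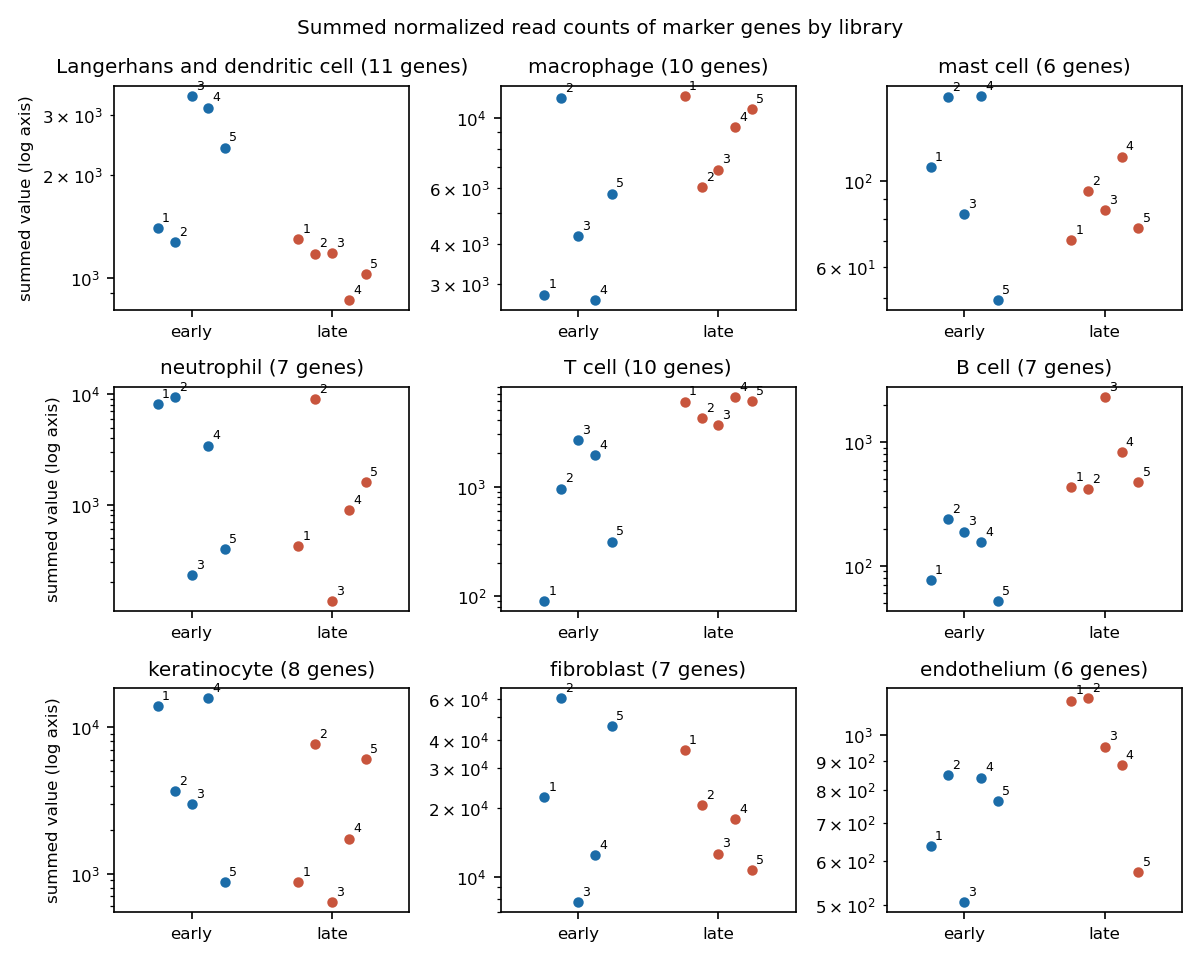
Summed normalized read counts (y axis, log) of the marker genes found for 9 cell types in early (blue) and late (red) CCH, with 1 point per numbered library. T-cell and B-cell sums of all late libraries lie above the early ones, Langerhans and dendritic cell sums lie at 1272 to 3415 in early and 859 to 1297 in late CCH, and mast cell sums overlap.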

How the data were processed

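QuantSeq 3′ libraries of 5 early and 5 late CCH were analysed. According to the methods of the study and the submitters' processing notes, the authors trimmed reads with Cutadapt, aligned them with STAR to CanFam3.1 and counted them per gene with featureCounts in 2 rounds, the second on genes extended downstream by 2 kb. Reads with several mapping places were shared evenly. Versions are not given in the sources used here. The deposited values are a normalized signal, which the authors made by dividing the read counts of each library by a size factor. All 166096 values above 0 in the 10 columns used were whole multiples of 1 read, within 0.001 reads, so that 100% gave whole reads. A further 11 columns of the table match no sample and were not used. Column names show the stage but not the sample.

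Because the deposited unit is normalized, the main test was limma, run with its trend option on log2(value + 1). It was fitted on the 12397 genes that reached 10 in 5 or more libraries, without covariates and with BY adjustment over all of them. All 10 members passed this filter. Alternatives were TMM and column total scaling, pseudocounts of 0.5 and 5, other filters, BH adjustment, edgeR and DESeq2 on the recovered reads, and leaving out each library. R 4.3.3, limma 3.58.1, edgeR 4.0.16 and DESeq2 1.42.0 were used. The fits were also run on simulated counts, and the outcome is not used here as support for any result. The genes named are the 10 members, pathway genes called, the highest and lowest log2FC of each pathway and marker list, genes at 0 in every library, and the 5 genes closest to ALOX5. MGLL, COTL1, LTB4R, FLT3, FCER1A, CD6, CD1B, CD1C, KIT, MS4A2, MGAT4B and PLA2G2F were added after their values were seen. The lowest log2FC of the B-cell list is not reported here. The members and lists were chosen with earlier results of these data known. The RefSeq table of UU_Cfam_GSD_1.0 served only to see which genes overlap. Intervals of log2FC are 95% confidence intervals from limma.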

Additional observations from a re-analysis of the deposited data

Results flagged for a closer look

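For each of the 10 genes, the 5 libraries of a stage were searched for an extreme value, using Dixon's ratio of the gap next to the extreme library over the whole range. The ratio passed its limit of 0.71 in 4 of 20 groups, all 4 of them early. About 1 flag would be due by chance if values were normal and groups independent. The values here are skewed read counts, and PTGS2, PTGES and LTA4H were flagged in the same library. The number due to chance is thus not known. The values are given without an explanation.

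PTGS1 in early library 4 had a normalized read count of 355 against 31.7 in the next library, a relative gap of 0.933. PTGS2 in early library 2 had 94.0 against 11.0, a relative gap of 0.891. PTGES in the same library had 365 against 90.4, a relative gap of 0.864. LTA4H in early library 2 was the lowest of its stage, with 497 against 730.0, a relative gap of 0.846.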

How the results depend on the processing

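No paired analysis was possible because column names show no replicate number and early and late tumors came from different dogs. Of the 9 members left after ALOX5 was set aside, only ALOX5AP was called under the 9 alternative settings and without each library in turn (1 call in each). ALOX5 had log2FC values from -4.57 to -3.95 over these fits. The number of further pathway genes called was 0 of 32 with the main settings. With BH adjustment, which is less strict by construction, it was 2, where 9.04% of all genes tested were called. It ranged from 0 to 1 when single libraries were left out. Of the members, LTC4S turned to positive log2FC values of 0.080 with column total scaling, 0.0080 with a pseudocount of 5, 0.25 with edgeR and 0.24 with DESeq2, and the cause was not tested. Without single libraries LTC4S ranged from -0.33 to 0.53 and PTGS2 from -0.13 to 1.15, where PTGS2 passed the filter in 5 of 10 such fits. None of these values passed the test. LTA4H had adjusted p-values of 0.0229 to 0.167 without single libraries. It passed the adjusted p with TMM scaling (0.0491), a pseudocount of 5 (0.0463), BH adjustment (0.00537) and DESeq2 (0.000445), but its log2FC stayed under 1 in size in every fit run. Depth limits the genes with few reads: PTGS1 had 2 to 451 and PTGS2 1 to 101 reads per library, so that their low values lie near or under the limit of 3 reads.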

Other observations

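PLA2G2F, a secreted phospholipase of the epidermis, had too few reads for the main test and was chosen here after its values were seen. It had normalized counts of 3.34 ± 1.74 in early and 30.1 ± 16.2 in late CCH (SD, n = 5 each), with 18 and 149 reads, and 4 of 5 late libraries lay above every early library. With the filter on the mean value or without a filter it was tested and not called, with a log2FC of 2.63 and BY-adjusted p-values of 0.165 and 0.268 from limma.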
